A study of Mus musculus with 12 samples.

Results

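The 10 cell cycle genes described here are Top2a, Mki67, Birc5, Cdk1, Ccnb1, Ccnb2, Pclaf, Stmn1, Rrm2 and Cdc20, chosen by symbol among the 31053 genes of the deposited matrices. A dividing cell copies its DNA in S phase and separates the copies in mitosis, and most genes of this kind are switched on only for those phases, so that RNA of several of them in the same cell marks a cell that was in the cycle. Rrm2, a subunit of ribonucleotide reductase, makes DNA building blocks, and Pclaf binds the replication clamp PCNA. Cdk1 with its cyclin partners Ccnb1 and Ccnb2 drives entry into mitosis, Cdc20 activates the anaphase-promoting complex, Birc5 (survivin) belongs to the chromosomal passenger complex, Top2a untangles DNA, Mki67 coats mitotic chromosomes and Stmn1 destabilizes microtubules. Microglia, the resident macrophages of the brain, renew themselves by division, and few of them divide at any time in the healthy adult.

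The cells came from 12 male mice at postnatal day 90, of the inbred strain C57BL/6J with no added allele, whose whole brain was used, and were sorted as live cells positive for CD45 and CD11b, a gate that also admits border macrophages, monocytes and neutrophils. Brains were dissociated by cold Dounce homogenization (DNC), which crushes tissue between glass surfaces, or by warm enzymatic digestion (ENZ), each without inhibitors (NONE) or with inhibitors of transcription and translation (INHIB), actinomycin D, triptolide and anisomycin. The groups were DNC-NONE replicates 1, 2 and 3, DNC-INHIB replicates 4, 5 and 6, ENZ-NONE replicates 4, 5 and 6 and ENZ-INHIB replicates 1, 2 and 3, with 1 mouse per library. The question put to these genes was how many cycling cells each preparation held and whether the levels of the genes differed between preparations.

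The 12 libraries held 28426 barcodes called as cells and between 2118143 and 3654465 UMIs each, a UMI (unique molecular identifier) standing for 1 captured RNA molecule. Of these barcodes, 18851 had at least 1000 UMIs and were used unless stated, 9787 from DNC and 9064 from ENZ. Between 16.9% and 65.9% of the barcodes of a library fell below that minimum, the most in DNC-NONE replicate 2. The median depth of the barcodes kept ran from 1154 to 1408 UMIs in DNC libraries and from 1291 to 1572 in ENZ libraries. Microglia markers such as P2ry12 and Tmem119 led in 96.4% to 99.6% of the barcodes of each library. Barcode sequences were shared by 2 or more libraries in 503 of 27914 cases. Each library stands in 1 of 2 batches named by the labels, with 3 DNC and 3 ENZ libraries in each. Batch 1 held DNC-NONE replicates 1 and 2, ENZ-NONE replicates 4 and 5, DNC-INHIB replicate 4 and ENZ-INHIB replicate 1. Inhibitors were thus not balanced over the batches, and comparisons of inhibitors are partly mixed with batch.

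Because genes expressed in the same phase often share short promoter motifs, the promoters of 9 of the 10 genes were read from RefSeq (GRCm38.p6), each from 250 bases before to 50 bases from the start on. A CHR element (TTTGAA or TTCGAA), known from promoters of mitotic genes, was found on either strand in 5 of 9, against 19.2% of 32851 promoters of the same length. A CCAAT box (CCAAT), often found beside it, was in 8 of 9, against 37.4%. An E2F-type site (TTTCGCGC, TTTGGCGC or TTCCCGCC), known from genes of DNA replication, was in 2 of 9, against 2.96%. No match shared bases with another. The Top2a promoter (chr11:99024140-99024439, minus strand) held the most matches, with 4 CHR elements and 6 CCAAT boxes, Cdk1 (chr10:69352863-69353162, minus strand) was the only one of the 9 with all 3 kinds, Cdc20 (chr4:118437294-118437593, minus strand) had 1 CHR element between 2 CCAAT boxes, and Birc5 (chr11:117848987-117849286, plus strand) had no match. These 4 are shown 5′ to 3′, with the matched letters, on either strand, in capitals.
Top2a: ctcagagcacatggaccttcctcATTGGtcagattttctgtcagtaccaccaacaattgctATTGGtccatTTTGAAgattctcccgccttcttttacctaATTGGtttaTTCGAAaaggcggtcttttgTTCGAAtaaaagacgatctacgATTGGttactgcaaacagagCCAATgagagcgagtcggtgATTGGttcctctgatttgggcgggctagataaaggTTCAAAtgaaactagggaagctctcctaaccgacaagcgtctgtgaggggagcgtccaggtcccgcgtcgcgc
Cdk1: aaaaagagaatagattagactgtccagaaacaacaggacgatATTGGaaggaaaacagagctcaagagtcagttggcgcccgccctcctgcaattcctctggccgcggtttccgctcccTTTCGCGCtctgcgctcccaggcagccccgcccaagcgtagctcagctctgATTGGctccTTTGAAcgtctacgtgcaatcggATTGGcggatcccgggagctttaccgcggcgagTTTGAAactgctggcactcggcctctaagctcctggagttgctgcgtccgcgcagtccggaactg
Cdc20: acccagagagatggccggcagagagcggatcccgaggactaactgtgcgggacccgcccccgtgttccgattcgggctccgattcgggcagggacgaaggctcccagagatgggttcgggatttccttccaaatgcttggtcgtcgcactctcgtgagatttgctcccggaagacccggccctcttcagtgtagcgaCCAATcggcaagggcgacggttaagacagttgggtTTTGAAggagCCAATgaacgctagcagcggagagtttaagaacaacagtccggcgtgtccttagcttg
Birc5: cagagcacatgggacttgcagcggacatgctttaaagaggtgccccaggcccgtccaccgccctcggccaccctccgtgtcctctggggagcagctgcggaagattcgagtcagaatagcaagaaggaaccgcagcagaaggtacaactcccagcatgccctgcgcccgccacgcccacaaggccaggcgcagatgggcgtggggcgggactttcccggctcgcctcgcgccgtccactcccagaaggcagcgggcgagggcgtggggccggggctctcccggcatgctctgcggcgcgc
The CHR element was also in the promoters of Mki67 and Ccnb2, with 2 matches each, and the CCAAT box in those of Mki67 and Ccnb2 (3 each), Ccnb1 and Pclaf (2 each) and Rrm2 (1). The second promoter with an E2F-type site was that of Pclaf. A match describes the letters in this window and shows no binding.

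Cycling cells were few. Of the 18851 barcodes with at least 1000 UMIs, 17473 held no UMI of any of the 10 genes, 1327 held UMIs of 1 gene, 10 of 2 genes and 41 of 3 or more. Past the minimum of 3 genes the counts did not tail off, since 7, 3, 3, 7, 8, 7, 5 and 1 barcodes held 3, 4, 5, 6, 7, 8, 9 and 10 of the genes. With no UMI minimum, 44 of 28426 barcodes held 3 or more. The 3 added had 912 and 939 UMIs in DNC-NONE replicate 2 and 353 UMIs in ENZ-INHIB replicate 3.

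With at least 1000 UMIs, the barcodes with 3 or more genes numbered 6, 4 and 8 in DNC-NONE replicates 1, 2 and 3, with 5, 4 and 5 in DNC-INHIB replicates 4, 5 and 6. They numbered 0, 2 and 2 in ENZ-NONE replicates 4, 5 and 6 and 3, 1 and 1 in ENZ-INHIB replicates 1, 2 and 3. As shares of the barcodes of each library, DNC-NONE gave 0.326%, 0.467% and 0.569%, DNC-INHIB 0.324%, 0.205% and 0.229%, ENZ-NONE 0%, 0.178% and 0.114%, and ENZ-INHIB 0.221%, 0.0597% and 0.0629%. The count of 0 among the 1571 barcodes of ENZ-NONE replicate 4 allows a share of up to 0.191% by the limit of 3 counts, and its exact 95% interval reaches 0.235%. The 2 methods overlapped in 1 place, since the highest ENZ share (ENZ-INHIB replicate 1) lay above the lowest DNC share (DNC-INHIB replicate 5).

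**Figure D1:**
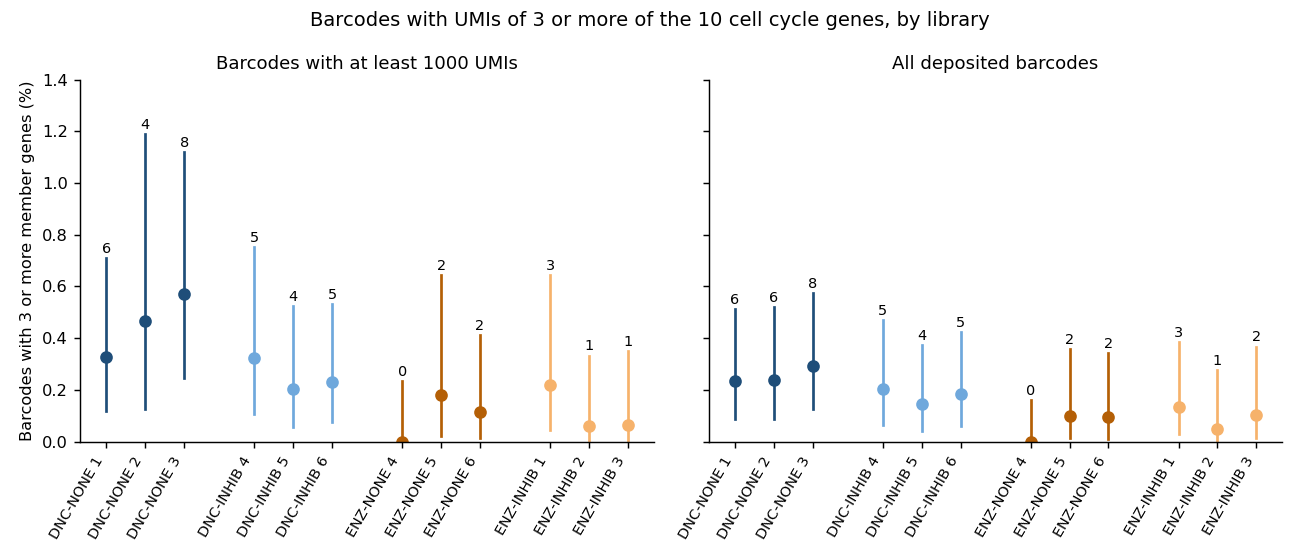
Share of barcodes with UMIs of 3 or more of the 10 cell cycle genes in each of the 12 libraries (vertical axis, percent), for barcodes with at least 1000 UMIs and with no minimum, by preparation, with 95% exact intervals and the number of such barcodes above each point. The 6 DNC libraries sat between 0.205% and 0.569% with the minimum, and the 6 ENZ libraries between 0% and 0.221%.

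DNC-NONE had a mean share of 0.454% ± 0.122, DNC-INHIB one of 0.252% ± 0.0629, ENZ-NONE one of 0.0976% ± 0.0904 and ENZ-INHIB one of 0.114% ± 0.0920 (SD, n = 3 mice each). Over both inhibitor settings, DNC libraries held 0.353% ± 0.141 (SD, n = 6; 32 of 9787 barcodes) and ENZ libraries 0.106% ± 0.0821 (SD, n = 6; 9 of 9064). The difference of 0.247 percentage points was larger than the spread within groups (SD 0.0942), and it is given with no test because the genes were chosen with results of these data known. Within batch 1 the means were 0.372% in DNC and 0.133% in ENZ, and within batch 2 they were 0.334% and 0.0790%.

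With no UMI minimum, DNC libraries ranged from 0.146% to 0.292% and ENZ libraries from 0% to 0.132%, with no overlap, and the difference was 0.137 points. Because deeper barcodes are more likely to show 3 genes, each barcode was also thinned to 1000 UMIs, which left 28 such barcodes in DNC and 5 in ENZ. Thinned shares were 0.316% ± 0.143 (SD, n = 6) in DNC and 0.0545% ± 0.0541 (SD, n = 6) in ENZ, and the DNC libraries, from 0.154% to 0.498%, then lay above the ENZ libraries, from 0% to 0.147%. Averaged over methods, inhibitors went with a smaller difference than the method did. With at least 1000 UMIs, 22 of 8542 barcodes in NONE and 19 of 10309 in INHIB libraries held 3 or more genes. The mean share in INHIB minus NONE was -0.0925 points, less than 1 SD of the spread within groups. Within DNC, NONE libraries (0.326% to 0.569%) lay above INHIB libraries (0.205% to 0.324%), also with no minimum. Thinned, they overlapped (0.272% to 0.498% and 0.154% to 0.324%). Within ENZ, NONE (0% to 0.178%) and INHIB (0.0597% to 0.221%) overlapped. The difference within DNC was not tested and is partly mixed with batch.

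The 41 barcodes were mostly microglia by their markers. The list with the most UMIs was that of microglia in 35 of them (26 DNC, 9 ENZ), of monocytes such as Ly6c2 and Ccr2 in 3, from DNC-NONE replicates 1 and 2 and DNC-INHIB replicate 6, and of neutrophils and their precursors such as S100a8, Ngp and Camp in 3, all from DNC-NONE replicate 3. The monocyte-led barcodes held 1 to 3 UMIs of the microglia list and 17 to 24 of their own, and the neutrophil-precursor-led ones 2 to 5 and 1045 to 1967. Among microglia-led barcodes alone, 26 of 9603 in DNC and 9 of 8954 in ENZ held 3 or more of the genes, and the difference between mean shares was 0.180 points.

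Depth set them apart too. Their median was 2316 UMIs (1180 to 5095) against 1337 in the other barcodes, and 26 of the 41 (20 DNC, 6 ENZ) lay above the 95th percentile of UMIs of their own library. Doublets were not removed, and their part in these barcodes was not tested.

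A barcode of this set held a median of 7 of the 10 genes and 15 of their UMIs, from 3 to 44. The only barcode with UMIs of all 10 was microglia-led and came from ENZ-INHIB replicate 2. UMIs of mitosis genes outnumbered those of replication and nucleotide genes in 33 of the 41 (27 DNC, 6 ENZ), and the reverse held in 8 (5 DNC, 3 ENZ). Replication and nucleotide genes were without a UMI in 6.

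**Figure D2:**
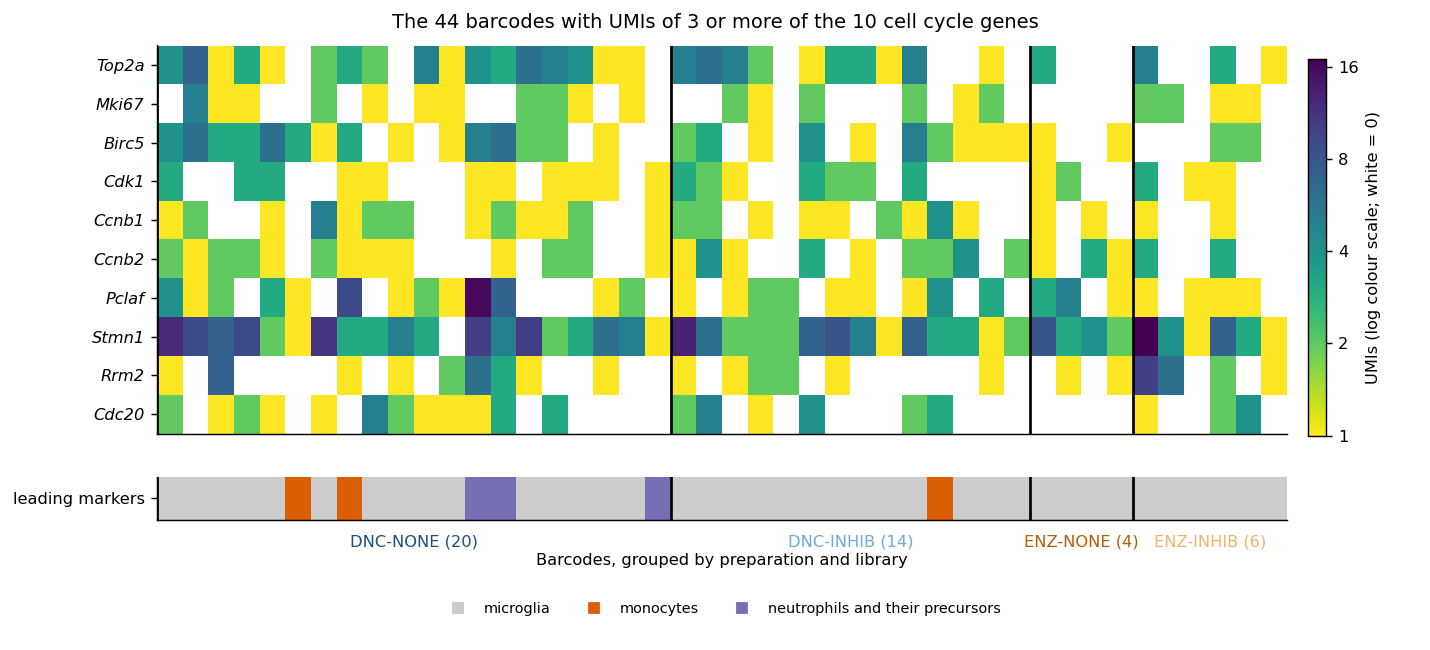
UMIs of each of the 10 genes (rows, log colour scale, white for 0) in the 44 barcodes with 3 or more of them (columns, no UMI minimum), grouped by preparation, with the leading marker list of each barcode below. DNC barcodes make up 34 of the 44 columns, and Stmn1 is filled in nearly every column, while Mki67 and Rrm2 are filled in fewer.

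The genes differed in how far their UMIs were held by these barcodes. Top2a had 90 of its 96 UMIs in them (93.8%) and Mki67 32 of 33 (97.0%). Birc5 had 83.0%, Ccnb2 82.0%, Rrm2 80.3%, Ccnb1 78.8% and Cdc20 68.2%. Pclaf was lower, at 76 of 130 (58.5%), and the remaining 2 were mostly outside, with 41 of 135 UMIs (30.4%) for Cdk1 and 215 of 1440 (14.9%) for Stmn1. Of the 2162 UMIs of all 10 genes, 32.9% lay in the 41 barcodes, and without Stmn1 68.8% of 722 did.

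These shares use each gene to choose the barcodes, so each gene was also set aside and its detection read in barcodes with 3 or more of the other 9. Top2a was then found in 67.5% of such barcodes against 0.0372% of the rest, and Mki67 in 45% against 0.0106%. For Cdk1 the pair was 55% against 0.505%, for Pclaf 63.2% against 0.282%, and Stmn1 was found in 34 of 34 against 6.06%. The other 5 genes ran from 43.6% (Rrm2) to 66.7% (Birc5) within and from 0.0478% (Rrm2) to 0.112% (Cdc20) outside. There is no cell type in the sort that could serve as a blank for these genes. The share outside can hold RNA of the cell itself as well as free RNA, and the part of each was not tested. That share was lowest for Mki67 and highest for Stmn1.

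**Figure D3:**
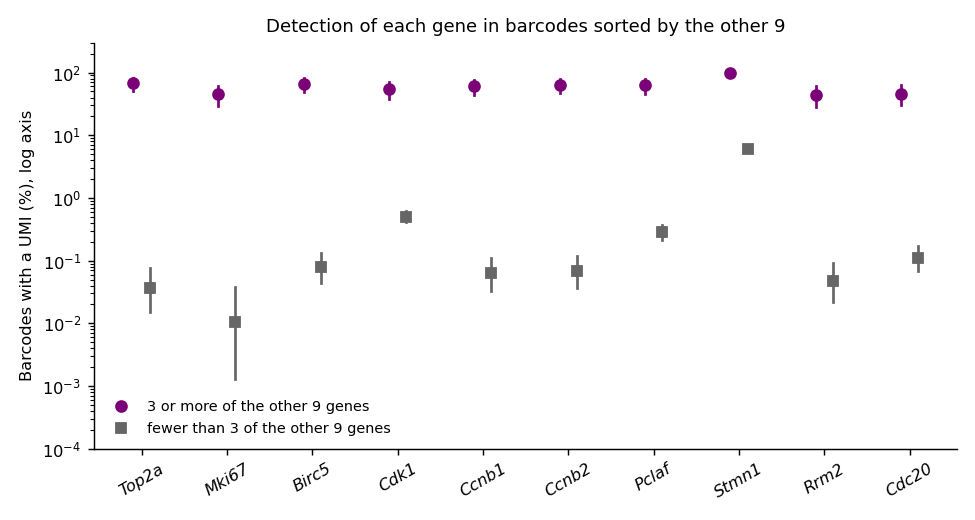
Percent of barcodes with a UMI of each gene (log axis), among barcodes with 3 or more of the other 9 genes (circles) and among the rest (squares), at least 1000 UMIs, all 12 libraries pooled, with 95% exact intervals that cover counting error only. The circles lie between 43.6% and 100%, and the squares between 0.0106% for Mki67 and 6.06% for Stmn1.

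Pairs of genes met in the same barcodes. Top2a was in 16 of the 20 barcodes with Mki67 (80%), and Stmn1 in 19 of those 20 (95%). The cyclins Ccnb1 and Ccnb2 shared 21 barcodes, 58.3% of the 36 with Ccnb1, and the S phase genes Pclaf and Rrm2 shared 18, 69.2% of the 26 with Rrm2. By contrast, Cdk1 and Stmn1 shared 26 barcodes, 22.2% of the 117 with Cdk1.

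Outside the 10, genes were ranked by the ratio of CPM (UMIs of a gene per 1000000 UMIs) within the 41 barcodes to CPM in the rest, among the 2033 genes with at least 10 UMIs within, and the first 10 are named. Pbk, a mitotic kinase, had 50 UMIs within and 0 outside. Mxd3 (12 and 0), Melk (11 and 0), Pimreg (11 and 0) and Troap (10 and 0) were also found only within. Nusap1, which bundles spindle microtubules, had 36 UMIs within and 1 outside, Hmmr 23 and 1, Ube2c, the ubiquitin-conjugating enzyme of the anaphase-promoting complex, 38 and 2, Knl1, a kinetochore scaffold, 16 and 1, and Aspm, a spindle pole protein, 11 and 1. These barcodes were chosen by cell cycle genes, and the ratios are a description.

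Of 117 other cell cycle genes in 6 lists, those of the spindle, kinetochore and condensin had a summed CPM 98.5 times as high within as in the rest, and mitotic kinases, cyclins and anaphase control 24.5 times. The ratio was 14.6 for nucleotide supply, 8.24 for chromatin and tubulin genes, 6.31 for replication licensing and fork genes and 3.84 for G1 regulators. Some genes of these lists had few UMIs outside (Tk1, thymidine kinase, 30 within and 21 outside) and others many (Mcm3, a subunit of the replicative helicase, 15 and 1136). The summed CPM of 11 microglia markers was 0.597 times that in the rest, that of 10 neutrophil and precursor markers 90.3 times and that of 6 monocyte markers 22.5 times. Each of the last 2 lists led in 3 barcodes. Most of the monocyte ratio did not come from the monocyte-led barcodes, which held 17 to 24 UMIs of that list each. The neutrophil-precursor-led ones held 37, 55 and 78 of its 240 UMIs within, and Chil3 alone gave 180 of the 240.

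Levels by library were compared next, starting with the genes whose UMIs lay almost wholly in cycling barcodes. Top2a (chr11:98992943-99024189, minus strand) had 16, 8 and 24 UMIs in DNC-NONE replicates 1, 2 and 3, against 18, 9 and 9 in DNC-INHIB replicates 4, 5 and 6. In the same order of replicates it had 0, 3 and 0 in ENZ-NONE and 5, 4 and 0 in ENZ-INHIB. Every DNC library was above every ENZ library, with a lowest DNC level of 2.78 CPM and a highest ENZ level of 2.69 CPM. Those levels rest on 9 UMIs in DNC-INHIB replicate 6 and 5 UMIs in ENZ-INHIB replicate 1. The mean level was 6.98 ± 3.81 CPM (SD, n = 6) in DNC and 1.03 ± 1.19 CPM (SD, n = 6) in ENZ. Mki67 (chr7:135689784-135716361, minus strand) had 7, 3 and 6 UMIs (DNC-NONE), 4, 2 and 5 (DNC-INHIB), 0, 0 and 0 (ENZ-NONE) and 4, 1 and 1 (ENZ-INHIB). Against a floor of 3 UMIs over the 3 ENZ-NONE libraries (0.465 CPM), DNC-NONE was at least 6.40-fold higher. ENZ-INHIB replicate 1, with the most Mki67 UMIs of the ENZ libraries, was also the ENZ library with the most cycling barcodes.

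The mitotic regulators followed. Birc5 (chr11:117849251-117855743, plus strand) had 27, 5 and 16 UMIs (DNC-NONE), 6, 6 and 13 (DNC-INHIB), 1, 1 and 2 (ENZ-NONE) and 0, 7 and 4 (ENZ-INHIB). Its mean level was 5.58 ± 3.45 CPM (SD, n = 6) in DNC and 1.01 ± 0.947 CPM (SD, n = 6) in ENZ. ENZ-NONE lay below all DNC libraries and ENZ-INHIB overlapped them. Ccnb1 (chr13:100778650-100786570, minus strand) had 5, 12 and 8 UMIs (DNC-NONE), 5, 6 and 8 (DNC-INHIB), 0, 2 and 3 (ENZ-NONE) and 2, 1 and 0 (ENZ-INHIB). It was the other gene for which the methods did not overlap, with a lowest DNC level of 2.00 CPM and a highest ENZ level of 1.30 CPM. How many of all genes separate the methods in this way was not counted, so Top2a and Ccnb1 say nothing about the set. The related cyclin Ccnb2 (chr9:70407692-70421547, minus strand), had 8, 6 and 9 (DNC-NONE), 6, 4 and 11 (DNC-INHIB), 1, 1 and 5 (ENZ-NONE) and 4, 6 and 0 (ENZ-INHIB), and the methods overlapped. Cdc20 (chr4:118432901-118437352, minus strand) had 7, 9 and 7 UMIs (DNC-NONE), 11, 5 and 11 (DNC-INHIB), 2, 0 and 2 (ENZ-NONE) and 4, 2 and 6 (ENZ-INHIB), and its methods overlapped too. The mean levels in DNC and ENZ were 4.13 ± 3.60 and 0.642 ± 0.587 CPM for Ccnb1, 3.59 ± 1.49 and 1.23 ± 0.972 CPM for Ccnb2, and 4.27 ± 2.33 and 1.15 ± 0.909 CPM for Cdc20 (SD, n = 6 each).

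Pclaf and Rrm2 act in S phase. Pclaf (chr9:65890237-65903266, plus strand) had 18, 11 and 33 UMIs (DNC-NONE), 14, 7 and 12 (DNC-INHIB), 5, 10 and 6 (ENZ-NONE) and 6, 4 and 4 (ENZ-INHIB). Its mean level was 8.13 ± 5.64 CPM (SD, n = 6) in DNC and 2.88 ± 1.88 CPM (SD, n = 6) in ENZ. The highest value was that of DNC-NONE replicate 3, in which 2 neutrophil-precursor-led barcodes held 16 and 7 of the 33 UMIs. Rrm2 (chr12:24708241-24714146, plus strand) had 8, 2 and 18 UMIs (DNC-NONE), 7, 1 and 3 (DNC-INHIB), 0, 1 and 3 (ENZ-NONE) and 16, 2 and 0 (ENZ-INHIB). Its mean levels were 3.27 ± 3.47 CPM in DNC and 1.85 ± 3.34 CPM in ENZ (SD, n = 6 each). The 16 UMIs of ENZ-INHIB replicate 1 lay in 2 barcodes, with 10 and 6 UMIs.

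Cdk1 and Stmn1 were spread over many barcodes with no other gene of the set. Cdk1 (chr10:69335146-69352938, minus strand) had 21, 4 and 16 UMIs (DNC-NONE), 11, 14 and 7 (DNC-INHIB), 10, 8 and 9 (ENZ-NONE) and 8, 15 and 12 (ENZ-INHIB). Its mean levels, 5.62 ± 2.60 CPM in DNC and 4.62 ± 0.807 CPM in ENZ (SD, n = 6 each), differed by less than the spread in DNC. Stmn1 (chr4:134468320-134473843, plus strand) had 171, 63 and 127 UMIs (DNC-NONE), 103, 168 and 197 (DNC-INHIB), 112, 70 and 128 (ENZ-NONE) and 78, 121 and 102 (ENZ-INHIB). On the CPM scale Stmn1 was at 61.9 ± 7.62 CPM in DNC and 45.2 ± 4.03 CPM in ENZ (SD, n = 6 each), and the lowest DNC library, at 48.9 CPM, lay below the highest ENZ library, at 51.4 CPM. A sum over a library cannot tell fewer cycling cells from less RNA of a gene per cell. Pclaf lies wholly within Trip4 on the opposite strand (13030 bases) and Cdc20 shares 53 bases with Elovl1, also opposite. Top2a and Stmn1 overlap small RNA genes and Mki67 a predicted gene. Whether reads were counted by strand is not given in the sources used here, which leaves these 5 counts uncertain.

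**Figure D4:**
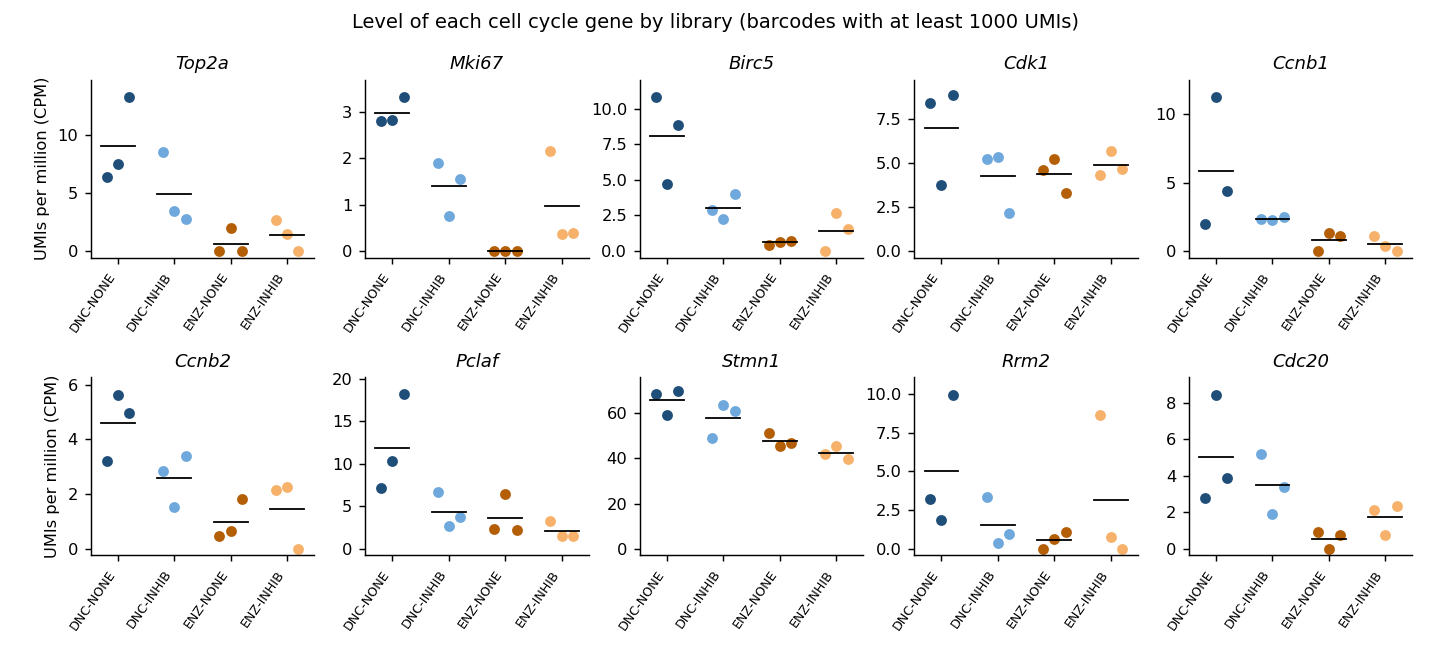
Level of each of the 10 genes in the 12 libraries (vertical axes, CPM, each gene on its own linear scale), barcodes with at least 1000 UMIs, with the group mean as a bar. Among the 10, every DNC library lies above every ENZ library for Top2a and Ccnb1. The share of all genes doing so was not counted.

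The first test asked whether digestion changed the levels when averaged over inhibitors, with 6 libraries on each side. Top2a and Birc5 fell. In edgeR's quasi-likelihood test on UMI sums, a gene was called at a Benjamini-Hochberg adjusted p below 0.05 over all 9881 genes tested and a log2 fold change beyond 0.58, and 0.86% of all genes were called. A low-count filter kept 5 of the 10 genes (Top2a, Birc5, Cdk1, Pclaf and Stmn1). Top2a and Birc5 passed it through the DNC libraries, where they were high, so the number called among the 5 supports nothing about the set. The log2 fold change of Top2a was -2.93 (SE 0.58, edgeR adjusted p = 0.0143) and that of Birc5 was -2.31 (SE 0.44, edgeR adjusted p = 0.0111). Pclaf was at -1.40 (SE 0.37, edgeR adjusted p = 0.0708) and Cdk1 at -0.24 (SE 0.28, edgeR adjusted p = 0.784). Stmn1 passed the p threshold but not the fold threshold, at -0.44 (SE 0.086, edgeR adjusted p = 0.0138). The median log2 fold change of all genes was 0.01. Mki67, Ccnb1, Ccnb2, Rrm2 and Cdc20 did not pass the filter.

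Each of these calls was lost without 1 library. Without DNC-INHIB replicate 4, Top2a was at -2.64 (edgeR adjusted p = 0.0505), and without DNC-INHIB replicate 6, Birc5 was at -2.16 (edgeR adjusted p = 0.0582). Without ENZ-NONE replicate 5, the only ENZ-NONE library with Top2a UMIs, the fitted change of Top2a was -4.59. Pclaf passed without DNC-NONE replicate 1 (edgeR adjusted p = 0.0397) or ENZ-NONE replicate 5 (edgeR adjusted p = 0.0386). In microglia-led barcodes alone, Top2a was at -2.77 (edgeR adjusted p = 0.0107), Birc5 fell under the filter and Pclaf was at -0.60 (edgeR adjusted p = 0.589).

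Markers of other cells overlapped between the methods in their summed levels, and several lists were lower on average in ENZ. The 10 neutrophil and precursor markers summed to between 0.400 and 5832 CPM in DNC libraries and between 0 and 547 CPM in ENZ libraries, the highest in DNC-NONE replicate 3. The 6 monocyte markers ran from 39.9 to 277 CPM in DNC and from 27.7 to 180 CPM in ENZ, and the 7 border macrophage markers from 70.8 to 303 and from 45.5 to 126 CPM. The 5 dendritic cell markers were at 55.6 ± 21.7 CPM in DNC and 22.0 ± 13.1 CPM in ENZ (SD, n = 6 each). Lymphocyte and NK cell markers (6) went the other way on average, at 1.32 CPM in DNC (0 to 3.86) and 6.78 CPM in ENZ (0 to 18.3). Markers of neurons and macroglia, of vessels and of red blood cells each summed to at most 39.0 CPM in any library. The 11 microglia markers were at 41300 to 44602 and 39411 to 45207 CPM. Leaving out the neutrophil-precursor-led barcodes kept the call of Top2a (-2.82, edgeR adjusted p = 0.0158) and took Birc5 under the filter.

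Without the low-count filter all 10 genes could be tested, among 16543 genes of which 1.46% were called, and 6 of the 10 fell with digestion. These were Top2a (-2.93), Mki67 (-3.19, SE 0.86, edgeR adjusted p = 0.0122), Birc5 (-2.31), Ccnb1 (-2.44, SE 0.54, edgeR adjusted p = 0.000556), Pclaf (-1.40, edgeR adjusted p = 0.000688) and Cdc20 (-1.83, SE 0.46, edgeR adjusted p = 0.00481). Ccnb2 was at -1.38 (edgeR adjusted p = 0.0739), Rrm2 at -1.0 (edgeR adjusted p = 0.442), Stmn1 at -0.43 and Cdk1 at -0.24. On the same UMIs this fit gave Top2a and Birc5 far smaller p-values than the filtered one, so its calls are the less strict. Top2a had an edgeR adjusted p of 1.36e-09, against 0.0143 with the filter. Birc5 had an edgeR adjusted p of 1.22e-05 at SE 0.43, against 0.0111 at SE 0.44. Before adjustment, the edgeR p of Birc5 was 7.44e-08 without the filter and 5.32e-05 with it. All calls with no filter, also those kept with a library left out, rest on such smaller p-values. Why the fits differed was not tested. Leaving out any of the 12 libraries kept the calls of Mki67 (edgeR adjusted p up to 0.0464), Ccnb1 (up to 0.0236) and Cdc20 (up to 0.0470). Rrm2 passed without ENZ-INHIB replicate 1 (-2.31, edgeR adjusted p = 0.0130), and Ccnb2 without ENZ-NONE replicate 6 (-1.86, edgeR adjusted p = 0.0279) or ENZ-INHIB replicate 2 (-1.68, edgeR adjusted p = 0.0492). In microglia-led barcodes with no filter, Mki67 was at -3.14, Ccnb1 at -2.13, Birc5 at -1.94 and Cdc20 at -1.62, all called.

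**Figure D5:**
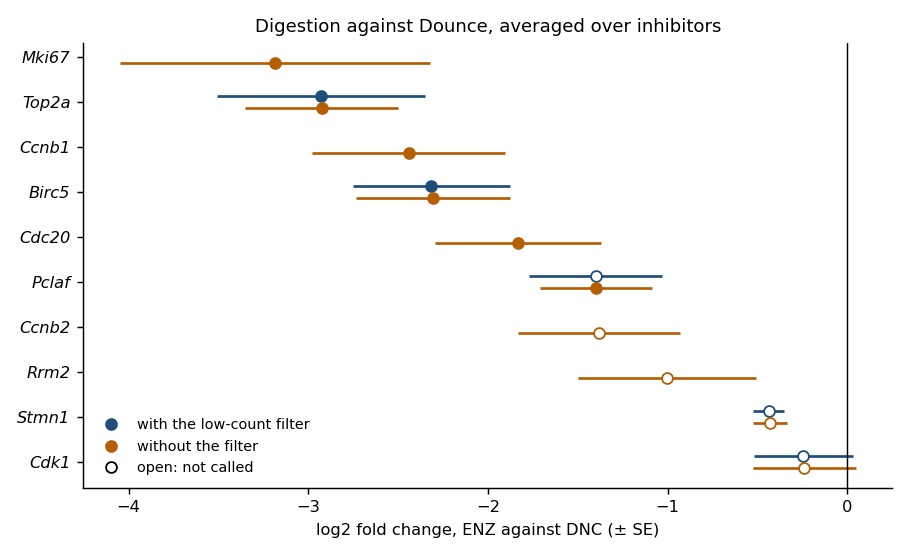
Log2 fold change of each gene, ENZ against DNC averaged over inhibitors (horizontal axis, ± SE), from edgeR with the low-count filter (5 genes) and without it (10 genes), with open circles for values not called. All 10 values without the filter lie below 0, from -3.19 for Mki67 to -0.24 for Cdk1.

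The same comparison was then split by inhibitor. The 4 pairwise comparisons of a digested with a Dounce group share libraries, so their values stand side by side. Without inhibitors (ENZ-NONE against DNC-NONE), Top2a and Birc5 fell, with 0.597% of all genes called, and again both had passed the filter through DNC libraries. Top2a was at -4.06 (SE 0.87, edgeR adjusted p = 0.0347) and Birc5 at -3.65 (SE 0.62, edgeR adjusted p = 0.0063). The call of Birc5 was kept whichever of the 12 libraries was left out. That of Top2a was lost without DNC-NONE replicate 2 or 3, DNC-INHIB replicate 5, ENZ-NONE replicate 4 or 6 or ENZ-INHIB replicate 2, with edgeR adjusted p from 0.0604 to 0.182, and its fitted change was -7.37 without ENZ-NONE replicate 5.

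With no filter, in the less strict fit, 7 of the 10 genes fell in ENZ-NONE against DNC-NONE, where 1.26% of all genes were called. Beside Top2a and Birc5 they were Mki67, Ccnb1 (-2.56), Pclaf (-1.75), Rrm2 (-2.92) and Cdc20 (-2.70). Ccnb1 was lost without DNC-NONE replicate 2 (-1.87), DNC-NONE replicate 3 (-2.65) or ENZ-NONE replicate 4 (-1.98), Rrm2 without DNC-NONE replicate 3 (-2.01) or ENZ-NONE replicate 4 (-2.36), and Cdc20 without DNC-NONE replicate 2 (-2.26) or ENZ-NONE replicate 5 (-2.31) or 6 (-2.90). In microglia-led barcodes Ccnb1, Rrm2 and Cdc20 were not called (-2.24, -1.71 and -2.43).

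With inhibitors (ENZ-INHIB against DNC-INHIB), 0 of 5 genes were called by edgeR, against 0.152% of all genes. Top2a was at -1.80 (unadjusted p 0.0267, edgeR adjusted p = 0.503), Stmn1 at -0.45 (unadjusted p 0.00151, edgeR adjusted p = 0.193) and Birc5 at -0.98 (edgeR adjusted p = 0.692). With no filter 0 of 10 were called, against 0.659%. DESeq2 gave Top2a -1.86 (adjusted p 0.877) and Birc5 -1.03.

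The 2 effects of digestion were compared by the interaction term, and 0 of 5 genes were called, against 0.172% of all genes. With errors as wide as those below, this does not show equal effects. The values were 2.27 for Top2a (SE 1.35, unadjusted p 0.110) and 2.66 for Birc5 (SE 0.95, unadjusted p 0.0118), both with an edgeR adjusted p of 1.00. Among the 5, Birc5 alone was under an unadjusted 0.05. With no filter 1 of 10 was called, against 0.429% of genes, and it was Rrm2 at 3.82 (edgeR adjusted p = 0.0149). That value rested on the 16 UMIs of ENZ-INHIB replicate 1, without which it was 1.20 (edgeR adjusted p = 1.00), and it was also lost without DNC-NONE replicate 3 (2.92), DNC-INHIB replicate 5 (3.38) or 6 (3.54) or ENZ-NONE replicate 4 (3.26).

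Across methods and inhibitors, ENZ-NONE against DNC-INHIB gave 0 of 5 called, against 0.779% of genes, with Top2a at -3.11 (unadjusted p 0.00413, edgeR adjusted p = 0.183) and Birc5 at -2.19 (unadjusted p 0.00727, edgeR adjusted p = 0.245). With no filter 1 of 10, Top2a, was called there, against 1.27%. ENZ-INHIB against DNC-NONE gave 0 of 5, against 0.101%. In that comparison Pclaf was at -2.52, Stmn1 at -0.64 (edgeR adjusted p = 0.0518 each), Birc5 at -2.44 (edgeR adjusted p = 0.0604) and Top2a at -2.75 (edgeR adjusted p = 0.140), all 4 under an unadjusted 0.05, and Birc5 passed without ENZ-NONE replicate 6 (edgeR adjusted p = 0.0334). With no filter 5 of 10 fell, against 1.32% of genes, namely Top2a (-2.74), Birc5 (-2.42), Ccnb1 (-3.37), Pclaf (-2.50) and Stmn1 (-0.62).

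For inhibitors averaged over the 2 methods, 0 of 5 genes were called, against 0.243% of all genes. DNC-INHIB against DNC-NONE was not fitted alone. Pclaf was at -1.12 (SE 0.38, unadjusted p 0.00861, edgeR adjusted p = 0.449), Stmn1 at -0.20 (unadjusted p 0.0310, edgeR adjusted p = 0.673), Top2a at 0.18 and Birc5 at -0.13. With no filter 1 of 10 was called, against 0.846%, and it was Pclaf at -1.11 (edgeR adjusted p = 0.0460). In microglia-led barcodes with the filter, Pclaf was at -0.49 (edgeR adjusted p = 0.892).

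The 117 other cell cycle genes were compared in the same fits. In the digestion comparison, with 0.86% of all genes called, 7 of 33 spindle, kinetochore and condensin genes passed the filter and 1 fell. It was Prc1, which bundles microtubules of the central spindle, with 6, 7 and 8 UMIs (DNC-NONE), 11, 2 and 4 (DNC-INHIB), 0, 0 and 0 (ENZ-NONE) and 3, 3 and 1 (ENZ-INHIB). Prc1 passed the filter through DNC libraries, where it was high, so its call supports nothing about the list. Digestion gave Prc1 a log2 fold change of -3.63 (SE 0.83, edgeR adjusted p = 0.0391), DNC-NONE was at least 8.40-fold higher than ENZ-NONE, and the call was lost in 10 of 12 fits that left out a library (edgeR adjusted p 0.0534 to 0.103), kept without DNC-NONE replicate 1 or DNC-INHIB replicate 5.

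The other 5 lists had no gene called in that comparison. Among 7 of 20 mitotic kinases, cyclins and anaphase control genes tested, Cdca8, a partner of Birc5 in the passenger complex, was at -1.18 (edgeR adjusted p = 0.0875) and Pttg1, securin, at 0.16 (edgeR adjusted p = 0.367). Among 15 of 24 replication genes, the licensing factor Cdt1 was at 0.55 (edgeR adjusted p = 0.361) and Mcm6 at -0.28 (edgeR adjusted p = 0.514). Of 5 of 6 nucleotide genes, Tyms was at -0.26 and Dtymk at 0.16. Of the 9 chromatin and tubulin genes, Tubb4b was at -0.31 and Lmnb1 at -0.41, and of 18 of 25 G1 regulators, cyclin D3, Ccnd3, was at -0.47 and its kinase Cdk6 at -0.22. No gene of the 6 lists was called in the other 6 comparisons with the filter.

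With no filter, where 1.46% of all genes were called, the digestion comparison called 5 of 33 spindle genes (Prc1, Tpx2 at -1.97, Kif20a at -2.90, Nuf2 at -2.73 and Nusap1 at -2.53), 2 of 20 mitotic kinase and cyclin genes (Ube2c at -2.91 and Cdkn3 at -1.65) and 1 of 25 G1 regulators (Ccne2, cyclin E2, at -2.29), all lower in ENZ. Of the replication, nucleotide, and chromatin and tubulin lists 0 genes were called. The medians were -0.89 for spindle genes, -0.85 for mitotic kinases and cyclins, -0.16 for G1 regulators, -0.15 for nucleotide genes, -0.14 for chromatin and tubulin genes and -0.08 for replication genes.

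A second count of barcodes used the 53 other mitotic genes, those of the spindle and mitotic kinase lists, in place of the 10. At least 3 of them were found in 89 barcodes, 50 in DNC and 39 in ENZ, and 37 of these were among the 41 (41.6% of the 89 and 90.2% of the 41). By library they numbered 10, 5 and 9 (DNC-NONE), 8, 9 and 9 (DNC-INHIB), 6, 6 and 14 (ENZ-NONE) and 2, 4 and 7 (ENZ-INHIB). Some of the 53 were found mostly outside the 41 barcodes. Pttg1 had 8 UMIs within and 2631 outside, Ncaph 4 and 445, and Cks2 32 and 451. The same held among the 10 genes for Stmn1, with 215 within and 1225 outside, and Cdk1, with 41 and 94. Which count lies nearer to the number of cycling cells was not tested. By the 53 genes, ENZ-NONE replicate 6 had the most barcodes, and the libraries of the 2 methods overlapped over most of their range.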

How the data were processed

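The deposited values are UMI counts per gene and barcode, which the authors made from 10X Genomics 3' version 2 libraries with Cell Ranger 3.0.0 against its mm10 reference, 1 matrix per mouse, not normalized and before the study's cell filters. That software keeps reads that fit 1 gene, so counts of near-identical genes can be low, and UMIs remove PCR copies, so intervals and floors (3 counts) cover counting error only. The 10 genes, the other lists and the markers were chosen with earlier results of these data known. Of 31053 gene identifiers, 31011 matched GENCODE vM21 on GRCm38, and all positions are 1-based.

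UMI counts were summed per library over barcodes with at least 1000 UMIs (1065682 to 3236894 UMIs a library), and 12 libraries in 4 groups were fitted with edgeR 4.0.16 in R 4.3.3 (TMM scaling, filterByExpr, quasi-likelihood test, Benjamini-Hochberg adjustment over all genes tested). Calls needed an adjusted p below 0.05 and an absolute log2 fold change above 0.58, the study's thresholds. Shares of barcodes carry exact Clopper-Pearson 95% intervals and no test. Replicates of a group differed by 1.68 to 6.49 chi-square per degree of freedom and each counted as 1. On simulated data with 9881 genes, the digestion comparison recovered 87.8% of genes changed 2-fold and 100% of those changed 4-fold, with 3.17% false calls. The changed genes were drawn from genes that had passed the filter, and any that fell under it in the simulated counts were left out. Recovery at counts as low as those of most of the 10 genes, or in the pairwise comparisons, was not measured. Alternatives were DESeq2 1.42.0, another scaling, no low-count filter, other barcode sets, batch as a covariate, a replicate block and leaving out each library. Those on microglia-led barcodes, without neutrophil-precursor-led barcodes, and combining no filter with a second change were chosen after seeing the data. Named were the 10 genes, every gene of another cell cycle list called with the filter or otherwise its 2 with the smallest adjusted p for digestion, and the 10 genes most concentrated in cycling barcodes. Genes called with no filter were named after their values were seen.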

Additional observations from a re-analysis of the deposited data

Results flagged for a closer look

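Among the 10 genes and the 117 others, 3 were called in the interaction of digestion and inhibitors with no low-count filter. That is the less strict fit, and 0.429% of all its genes were called. With the filter no gene of these was called. For Rrm2 the effect with inhibitors minus that without was 3.82 on the log2 scale (edgeR adjusted p = 0.0149), and 1.20 without ENZ-INHIB replicate 1. For Hmgb2, a chromatin protein abundant in dividing cells and neutrophil precursors, it was 0.99 (edgeR adjusted p = 5.8e-05), but with the filter, at the same size, the edgeR adjusted p was 0.960. For Myc, a growth regulator of G1, it was -0.87 (edgeR adjusted p = 0.00117), and with the filter the edgeR adjusted p was 1.00. Rrm2 did not pass the filter. The part of any cause was not tested.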

How the results depend on the processing

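Limits of depth come first. With 41 cycling barcodes, 9 of the 10 genes had at most 33 UMIs in any library and 5 fell under the low-count filter. The share of cycling barcodes, DNC minus ENZ, was 0.137 points with no UMI minimum, 0.180 to 0.293 under 6 other settings, and 0.218 to 0.279 with a library left out. INHIB minus NONE ran from -0.149 to -0.0246 over settings and from -0.124 to -0.0637 with a library left out. The digestion change of Cdk1 was 0.0119 with all deposited barcodes. The cause was not tested.

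Without the low-count filter more genes were tested, and the genes called over all genes numbered 242 for digestion, 140 for inhibitors, 71 for the interaction, 209 for ENZ-NONE against DNC-NONE, 109 for ENZ-INHIB against DNC-INHIB, 210 for ENZ-NONE against DNC-INHIB and 218 for ENZ-INHIB against DNC-NONE, against 85, 24, 17, 59, 15, 77 and 10 with it. ENZ-INHIB against DNC-INHIB gave 9 with DESeq2 and 24 with batch as a covariate, and ENZ-INHIB against DNC-NONE 20 with DESeq2 and 19 with all barcodes. With a library left out, the counts ran from 47 to 121, 9 to 32, 6 to 19, 40 to 88, 1 to 23, 50 to 92 and 0 to 72 in the order above. The replicate block could be fitted where groups share numbers, and gave 66 genes for ENZ-INHIB against DNC-NONE and 88 for ENZ-NONE against DNC-INHIB. Same-numbered libraries did not deviate together (correlations -0.156 to 0.116), so the numbers are not read as pairing. With the block, Top2a (-2.75) and Birc5 (-2.41) in ENZ-INHIB against DNC-NONE were not called, nor were they without it.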
